A study of Rattus norvegicus with 84 samples.

Results

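The response of the hippocampus to the histone deacetylase inhibitor SAHA was compared with that to its solvent in rats that swam in a water maze, on the 14 arrays of tissue labelled CA1 among the 84 arrays of the series. The members were chosen by their labels alone: 7 arrays of SAHA rats and 7 of vehicle rats, each from a different rat, all labelled CA1 and all of the maze group. All rats were male F344xBN hybrids aged 7 months. SAHA rats received 50 mg/kg intraperitoneally in undiluted DMSO, delivered at 50 mg/ml, and vehicle rats an equal volume of DMSO. Both groups had been trained in the maze on 8 days with 3 trials a day. A week later they were injected and, 10 min afterwards, began a session of 17 trials with a cutoff of 60 s and pauses of 15 s, in which the platform could be found from its place or, on most trials, seen directly (the redundant place-cue task, RPC in the labels). A probe trial of 60 s ended the session, and the rats were killed 90 min after the injection. For context, 14 further arrays labelled CA1 came from rats given the same injections that stayed in the home cage without training, and 28 arrays from the same maze groups were labelled CA3 or DG (dentate gyrus). Since every rat was injected, no array shows the level without an injection.

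SAHA (vorinostat) blocks zinc-dependent histone deacetylases, enzymes that remove acetyl groups from histones and other proteins. Acetylated histones are bound by reader proteins and usually mark open chromatin, and inhibition of deacetylases is known to raise some transcripts and lower others. In the hippocampus, learning switches on immediate early genes, and histone acetylation is widely studied as part of that response.

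The region label was checked against marker genes on the arrays of the maze groups. The 14 arrays labelled CA1 were low in most markers of CA1 pyramidal neurons: the median level of Wfs1, a pyramidal neuron marker of CA1, was 6.81 here and 10.56 in tissue labelled DG (log2 normalized intensity, as for every level given here). Mpped1 and Fibcd1, further CA1 markers, gave a detected signal on 0 of these 14 arrays, against 14 of 14 for the DG label. Markers of dentate granule cells ran the other way. Prox1, the transcription factor that defines granule cells, gave one on 14 of 14 and 2 of 14 arrays in that order. The median of C1ql2, a synaptic protein of granule cells, was 11.16 against 8.37, and that of Sema5a 7.79 against 5.98. Htr1a was an exception among the CA1 markers, with a median of 8.35 here against 6.49, and Pkp2 among the granule cell markers, with 9.22 against 10.63. The deposited label is kept below as "labelled CA1", and it went against most of these markers.

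The share of probes detected was similar in the groups, from 40.56 to 42.97% on the SAHA arrays and from 41.45 to 44.45% on the vehicle arrays. The mean signal ran from 499.1 to 633.3 and from 458.5 to 761.8. Vehicle replicate 1 correlated with the other labelled CA1 arrays less well than the rest of its group (median r = 0.974, below the limit of 0.976 set at 5 median absolute deviations under the median). In the home cage, SAHA replicate 5 (0.972) and vehicle replicate 6 (0.975) lay below this limit too. The fit without poorly correlated arrays leaves out all of these.

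Few genes separated the groups. Of 9919 probes tested, 6 passed an adjusted p of 0.05 (limma with Benjamini-Hochberg adjustment, as for every adjusted p here), which is 0.0605% of them: 1 was higher with SAHA (0.0101%) and 5 were lower (0.0504%). The transcript of Tmem252 fell most, and those of Cldn5, Exosc3 and Yeats4 fell by smaller amounts, as did an unnamed probe, while that of Phf13 rose. Without adjustment, 1049 probes (10.6%) had a p under 0.05, 597 higher (6.02%) and 452 lower (4.56%). The higher ones were thus 56.9% of them, against 17.4% with median scaling of the arrays and 45.2% with the authors' z-scores, so the balance of directions depends on the scaling. The levels of the groups did not overlap for 11 probes (0.111%), 10 of them higher with SAHA and 1, Cldn5, lower.

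**Figure D1:**
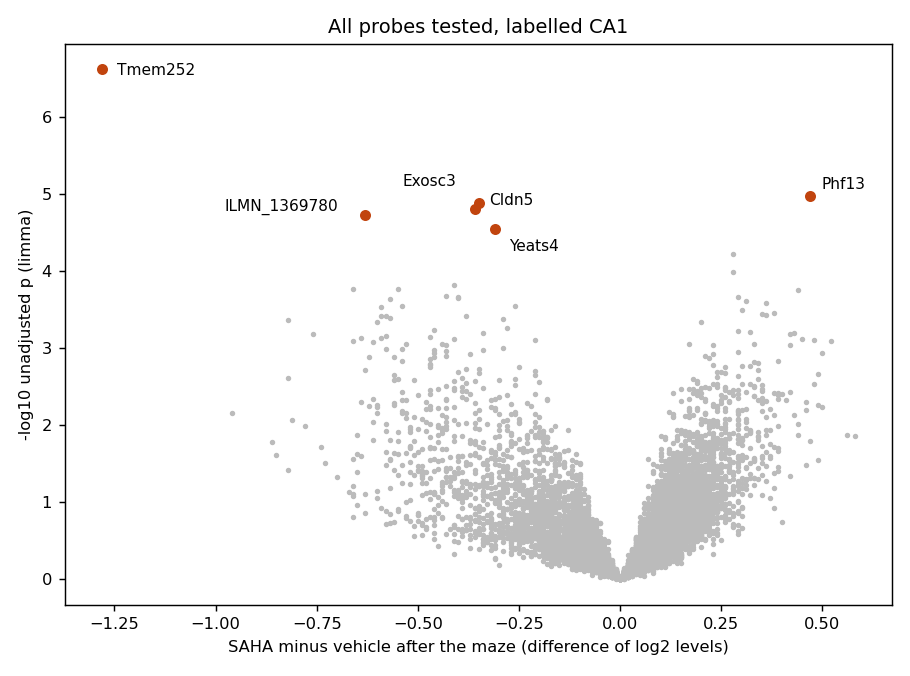
Each point is 1 of the 9919 probes tested. The horizontal axis is the difference of log2 levels, SAHA minus vehicle after the maze, and the vertical axis is -log10 of the unadjusted p of limma, with the 6 called probes in red. Tmem252 stands alone at -1.28, and Phf13 is the only called probe to the right of 0.

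Tmem252 codes for a transmembrane protein whose function is little studied. Its level on the vehicle arrays ran from 6.52 to 7.53 with a median of 7.02, and on the SAHA arrays from 5.27 to 6.71 with a median of 5.67. Of the SAHA arrays, 6 of 7 lay below every vehicle array, and the remaining one, SAHA replicate 1, lay at 6.71 within the vehicle range. The difference was -1.28 ± 0.19 (SE, n = 7 a group, adjusted p = 0.00239), a 2.43-fold lower level as measured. The transcript was dim: it was detected on 7 of 7 vehicle arrays and on 1 of 7 SAHA arrays. Most SAHA values therefore lie near the background, where the offset of the normalization can shrink a difference. How far it did so here was not tested, so the fold is only that of the measured values. Tmem252 was the only probe called in all 14 fits that left out 1 array. Its adjusted p was 0.128 when the spread was estimated from the 14 compared arrays alone.

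The gene lies on chromosome 1 at 231743396 to 231748360 of the rat assembly GRCr8 in RefSeq, on the plus strand. Its promoter, from 250 bases before to 50 after the start, is shown because this transcript had the largest called difference. It spans chr1:231743146-231743445 (GRCr8, plus strand), and the capitals mark the only match to the motifs searched, a glucocorticoid receptor site.

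Tmem252: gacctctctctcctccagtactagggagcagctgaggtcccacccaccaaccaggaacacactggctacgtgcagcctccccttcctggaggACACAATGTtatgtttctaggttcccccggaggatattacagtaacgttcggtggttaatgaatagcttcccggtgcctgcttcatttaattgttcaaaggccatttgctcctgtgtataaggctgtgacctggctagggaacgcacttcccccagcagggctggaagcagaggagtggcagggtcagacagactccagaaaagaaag

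The motifs were searched on both strands: TGACGTCA (cyclic AMP response element, CRE) and its shorter core TGACG, which the full element contains, TGANTCA (AP-1 site), ACANNNTGT (glucocorticoid receptor site), GGGCGG (GC box), CCAAT and TATAAA. The glucocorticoid receptor site occurred in 6.86% of the 33469 promoters of this length in RefSeq. The GC box, found in 33.1% of all promoters, was absent from this window, and its GC content of 53.3% was close to the median of 51.7%.

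Phf13 codes for a PHD finger protein that binds histone H3 trimethylated at lysine 4, a mark of active promoters. Its vehicle levels ran from 8.43 to 8.84 with a median of 8.6, and its SAHA levels from 8.52 to 9.32 with a median of 9.16. Again 6 of 7 SAHA arrays lay beyond all vehicle arrays, and SAHA replicate 1 lay among them at 8.52. The transcript rose by 0.47 ± 0.09 with SAHA, 1.38-fold (adjusted p = 0.0369). Phf13 lies on chromosome 5 at 167777303 to 167784077 (GRCr8, minus strand). Its promoter at chr5:167784028-167784327 is shown as that of the only called gene that was higher, with capitals on 2 matches to TGACG (found in 21.2% of promoters) and 2 to the GC box. Its GC content was 68% and it held 34 CpG pairs, against a median of 7 over all promoters.

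Phf13: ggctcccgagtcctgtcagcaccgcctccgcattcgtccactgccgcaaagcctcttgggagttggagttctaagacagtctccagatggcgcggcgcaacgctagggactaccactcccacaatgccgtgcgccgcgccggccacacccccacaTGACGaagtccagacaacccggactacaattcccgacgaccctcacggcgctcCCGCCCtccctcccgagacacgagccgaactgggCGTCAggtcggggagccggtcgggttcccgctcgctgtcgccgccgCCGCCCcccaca

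Cldn5 codes for claudin 5, the main claudin of the tight junctions between endothelial cells of the blood-brain barrier. Its vehicle levels ran from 11.61 to 12.05 with a median of 11.69, and its SAHA levels from 11.25 to 11.52 with a median of 11.41. The groups did not overlap. The transcript fell by 0.36 ± 0.07 on the log2 scale, a 1.28-fold lower level (adjusted p = 0.0369). In bulk tissue such as this, fewer cells of a type and less RNA per cell cannot be told apart. The mean level of the 5 tested endothelial markers, Cldn5 among them, ran from 7.91 to 8.82 in vehicle rats and from 7.98 to 8.70 in SAHA rats. Those values overlap, and of the other 4 markers Esam was lower with SAHA (-0.26), Vwf was at -0.06, and Tek (0.08) and Tie1 (0.30) were higher, none called.

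Cldn5 lies on chromosome 11 at 95717172 to 95718598 (GRCr8, minus strand). Its promoter at chr11:95718549-95718848 is shown as that of the only called gene whose groups did not overlap. Capitals mark 2 matches to CCAAT, a motif of 37.5% of promoters, and 1 to the GC box, all read on the opposite strand.

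Cldn5: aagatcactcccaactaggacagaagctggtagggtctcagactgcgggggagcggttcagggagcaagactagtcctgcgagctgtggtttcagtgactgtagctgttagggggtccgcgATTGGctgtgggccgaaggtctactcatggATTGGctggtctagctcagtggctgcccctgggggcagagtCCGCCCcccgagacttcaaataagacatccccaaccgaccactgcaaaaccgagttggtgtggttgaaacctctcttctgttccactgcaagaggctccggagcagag

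Exosc3 codes for a cap subunit of the RNA exosome, the complex that trims and degrades RNA from its 3′ end. Its vehicle levels ran from 10.04 to 10.37 with a median of 10.18, and its SAHA levels from 9.60 to 10.05 with a median of 9.84. The groups overlapped by 1 array on either side, SAHA replicate 3 at 10.05 lying just above the lowest vehicle array. The transcript fell by 0.35 ± 0.07 on the log2 scale (adjusted p = 0.0369).

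Yeats4 codes for GAS41, a YEATS domain protein that binds acetylated histones and belongs to the NuA4 acetyltransferase and SRCAP remodelling complexes. Its 7 vehicle levels lay close together, from 10.23 to 10.34 with a median of 10.31, and its SAHA levels ran from 9.91 to 10.32 with a median of 9.95. SAHA replicate 1, at 10.32, was the one SAHA array within the vehicle range. The transcript fell by 0.31 ± 0.06 on the log2 scale (adjusted p = 0.0468). The promoters of Exosc3 and Yeats4 are not shown: that of Exosc3 held none of the motifs, and that of Yeats4 held 2 GC boxes and 1 glucocorticoid receptor site.

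The sixth called probe, ILMN_1369780, has no gene symbol in the annotation used. Its vehicle levels ran from 9.70 to 10.50 with a median of 10.21, and its SAHA levels from 9.36 to 9.98 with a median of 9.45. It fell by 0.63 ± 0.12 on the log2 scale (adjusted p = 0.0369).

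**Figure D2:**
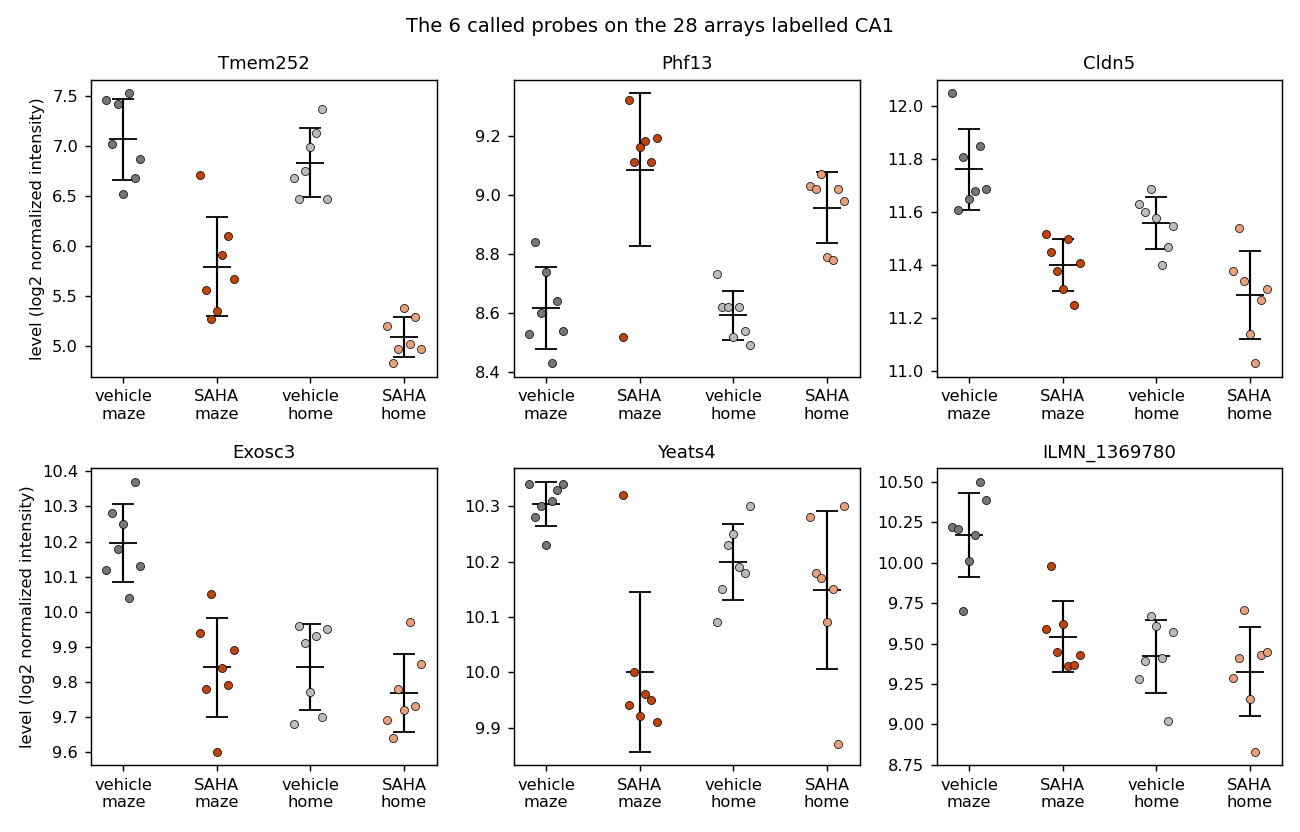
Levels of the 6 called probes on the 28 arrays labelled CA1 (vertical axis, log2 normalized intensity), with points for arrays, wide ticks for group means and bars for the SD of 7 arrays. The SAHA maze arrays lie apart from the vehicle maze arrays for Cldn5. A single SAHA array lies at vehicle level for Tmem252 (6.71), Phf13 (8.52) and Yeats4 (10.32).

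SAHA replicate 1 was the SAHA array nearest the vehicle mean for 4 of the 6 called probes, and for 8 of the 15 other genes with the smallest p-values. On the arrays of the same group and number, Tmem252 was at 7.31 in labelled CA3, where the SAHA median was 5.83, and at 7.52 in labelled DG, where it was 5.75. Both values are the highest of their SAHA group and lie inside the vehicle ranges, 6.77 to 7.67 and 7.00 to 7.59. Without SAHA replicate 1, 16 probes were called in labelled CA1, and the 6 were among them. Without vehicle replicate 3, 65 were called, again with all 6. The count was 6 without SAHA replicate 2 (3 of the 6 among them), 3 without vehicle replicate 2 or 4, 2 without SAHA replicate 3 or vehicle replicate 5, and 1, Tmem252, without any of the other 7 arrays. Cldn5 was called in 5 of these 14 fits (adjusted p from 0.0201 to 0.141), Phf13 in 4 (2.94e-05 to 0.135), Exosc3 in 4 (0.0184 to 0.141), the unnamed probe in 3 (0.0104 to 0.141) and Yeats4 in 2 (0.00107 to 0.178). All 5 stayed called without SAHA replicate 1 and without vehicle replicate 3. Their differences kept their direction in each of the 14 fits, with that of Phf13 between 0.43 and 0.56 and that of Cldn5 between -0.38 and -0.31. With only the 14 compared arrays in the fit no probe was called by limma, and 1091 had an unadjusted p under 0.05. With median scaling Tmem252 and the unnamed probe were called, and the adjusted p was 0.21 for Cldn5, 0.237 for Phf13, 0.369 for Exosc3 and 0.376 for Yeats4. The authors' z-scores kept the 5 lower probes and not Phf13, and array weights called 83 probes with all 6 among them.

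The arrays also differed along an axis that the drug does not define. The main axis of variation among home cage arrays within their groups (47.7% of that variance) was scored on the maze arrays. Vehicle scores ran from -15.7 to 14.2 with a median of -12.1, and SAHA scores from -10.5 to 27.6 with a median of -2.6. Across the 9919 probes, the weight on this axis and the SAHA difference had a Pearson r of 0.49. An axis has no direction of its own, and its sign was set to make this r positive. The order of the group medians and the percentiles below are read at that sign. The part of this axis in the called differences was not tested. Of the called probes, Tmem252 lay at percentile 85.2 of the weights although it was lower with SAHA, Phf13 at 26.9 although it was higher, Exosc3 at 49.5, Yeats4 at 34.1, Cldn5 at 17.7 and the unnamed probe at 9.22.

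**Figure D3:**
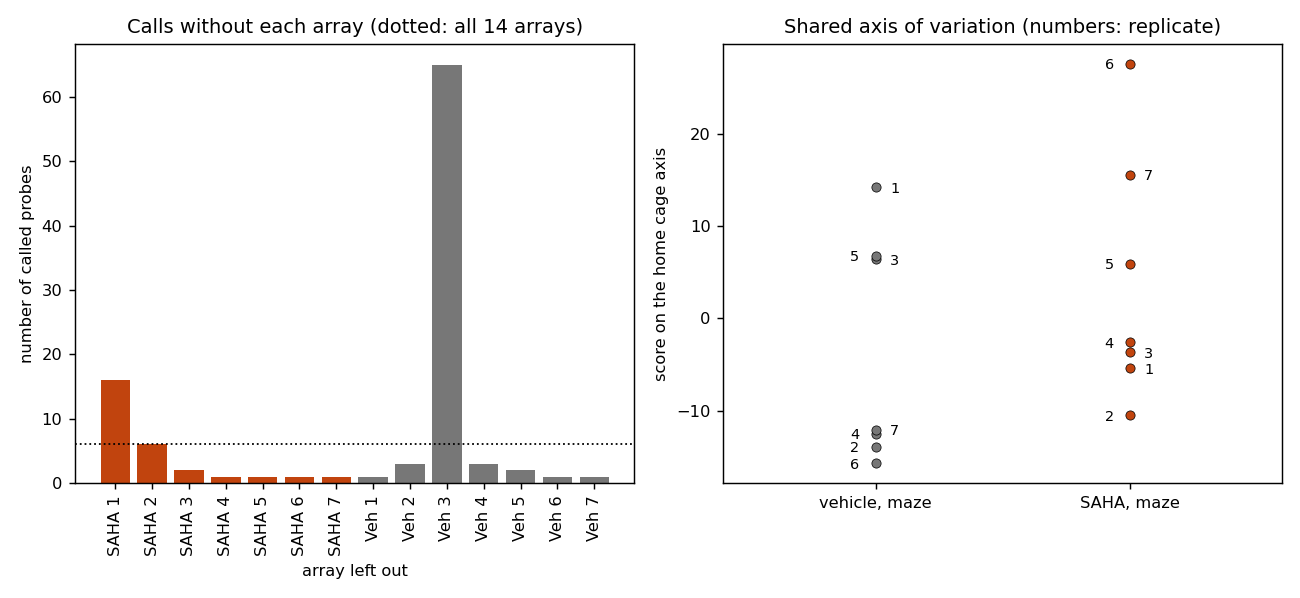
Left, the number of called probes (vertical axis) when the array named on the horizontal axis is left out, with SAHA arrays in red, vehicle arrays in grey and a dotted line at 6. The count is 65 without vehicle replicate 3 and 16 without SAHA replicate 1. Right, scores of the 14 arrays on the home cage axis (no unit), numbered by replicate. The sign of the axis was set to follow the SAHA difference. The groups overlap, with medians of -12.1 and -2.6.

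The 9 named genes with the next smallest p-values among those higher with SAHA did not pass the adjusted threshold (adjusted p from 0.0843 to 0.135). Fn3k, a kinase that repairs glycated proteins, had vehicle levels from 10.57 to 10.82 and SAHA levels from 10.78 to 11.12, a difference of 0.28 ± 0.06. Ddit3, which codes for the stress transcription factor CHOP, was at 10.08 to 10.40 in vehicle rats and at 10.42 to 10.79 in SAHA rats (0.29 ± 0.07). Itpkc, an inositol trisphosphate kinase, was at 6.64 to 6.93 and at 6.93 to 7.45 (0.36 ± 0.09). The groups did not overlap for Ddit3, for Itpkc (before rounding) or for Smim26, a small membrane protein (8.70 to 8.89 and 8.95 to 9.36), which are 3 of the 10 higher probes without overlap. Suox, the sulfite oxidase of mitochondria, differed by 0.44 ± 0.10, with SAHA replicate 1 at 8.0 inside the vehicle range. Gpr61, an orphan receptor, differed by 0.38 ± 0.09, Zrsr2-ps1, named as a pseudogene whose probe may also read related sequences, by 0.36 ± 0.09, Polg2, a subunit of the mitochondrial DNA polymerase, by 0.31 ± 0.07, and Apoo, a protein of the inner mitochondrial membrane, by 0.20 ± 0.05.

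Among the lower genes, 6 followed the called ones, each with an adjusted p of 0.13. Rcbtb1 had vehicle levels from 6.39 to 7.65 and SAHA levels from 6.03 to 6.65 (-0.66 ± 0.15). Tob1, an antiproliferative protein that recruits deadenylases, was at 7.51 to 8.20 and at 6.93 to 7.55 (-0.57 ± 0.14). Ntrk2, the receptor of brain-derived neurotrophic factor, was at 10.88 to 11.39 and at 10.62 to 11.25 (-0.40 ± 0.10). Each of these groups overlapped. The scaffold gene Pals2 differed by -0.55 ± 0.13, Samd8, related to the sphingomyelin synthases, by -0.43 ± 0.10, and Cdyl2, a chromodomain protein, by -0.41 ± 0.09.

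No gene tested among the zinc-dependent deacetylases was called, but calls were few, at 0.0605% of all probes. At that share the absence of a call in a list this short, here and below, says little. Of 11 zinc-dependent deacetylase genes, 7 were on the array and 6 were tested, 4 of them higher and 2 lower, with a median difference of 0.03 against 0.02 over all 7188 genes tested (log2). Hdac1, a class I deacetylase, had vehicle levels from 7.14 to 7.56 and SAHA levels from 7.35 to 7.84, with 6 of 7 SAHA arrays above every vehicle array (0.29 ± 0.09, adjusted p = 0.22). The exception was SAHA replicate 1. Hdac2 differed by 0.03 ± 0.07, Hdac3 by 0.10 ± 0.07, Hdac4 by -0.13 ± 0.10, Hdac8 by 0.02 ± 0.09 and Hdac11 by -0.09 ± 0.09. Of the corepressor subunits that carry deacetylases to DNA, 0 of 11 tested were called, with a median of -0.09: the scaffold Sin3a was at 0.32 ± 0.12, Ncor1 at -0.19 ± 0.07 and Mbd3 of the NuRD complex at -0.18 ± 0.08.

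Genes listed as responsive to deacetylase inhibitors in other cells gave no call among 12 tested, with 7 higher, 5 lower and a median of 0.00. Sqstm1, the autophagy receptor p62, had the smallest p of this list, with a difference of -0.14 ± 0.10 at its brightest probe, and -0.24 and 0.04 at its other probes. Of 7 acetyltransferase genes tested, 0 were called, with a median of -0.02, and Kat2a was at 0.12 ± 0.07.

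Both called chromatin genes belonged to the list of readers of acetylated or methylated histones, where 1 of 19 tested members rose (Phf13) and 1 fell (Yeats4), against 0.0101% and 0.0504% of all probes, with a median of 0.02. As the list was chosen with these calls known, nothing is read from that count, and the same holds for the lists of Exosc3 and Cldn5. Next in this list came Phf23, a further PHD finger protein, whose vehicle levels ran from 6.52 to 7.00 and SAHA levels from 6.69 to 7.47 (0.48 ± 0.15, adjusted p = 0.233), and Ing3, a PHD finger subunit of NuA4, at 6.47 to 6.94 and 6.29 to 6.71 (-0.32 ± 0.11, adjusted p = 0.257). Among 11 tested subunits of NuA4 and SRCAP, Yeats4 was the 1 called (0.0605% of all probes), and Ing3 and Brd8 (-0.12 ± 0.06) had unadjusted p-values under 0.05, as did 10.6% of all probes. In the RNA exosome and its cofactors, 1 of 16 fell, Exosc3 (0.0504% of all probes), and 10 of 16 lay above 0, near the 56.9% of all probes that did. Exosc7, a subunit of its ring, was at 0.15 ± 0.06 (adjusted p = 0.403).

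Genes of the vessel wall lay on both sides of 0. Of 8 tested endothelial junction genes, Cldn5 was the only one called (0.0605% of all probes), with 4 higher and 4 lower. Ocln, the tight junction protein occludin, was detected on 0 of 7 vehicle arrays and 3 of 7 SAHA arrays. Its measured means of 5.52 and 6.01 give a lower bound of 1.01-fold without allowance for error, and no rise was called (adjusted p = 0.403). Slc40a1, the iron exporter ferroportin, was at 0.30 ± 0.13 among 10 barrier transporters with no call. Among 14 endothelial receptors and factors with no call, Apold1, an early response gene of endothelium, was at 0.39 ± 0.14, and the transcription factors Sox17, Fli1 and Sox18 were at -0.31 ± 0.12, -0.31 ± 0.13 and -0.29 ± 0.13.

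Activity genes were not called. Of 25 immediate early genes tested, 9 were higher, 16 lower and 3 of the lower had an unadjusted p under 0.05, with a median of -0.06. Over all probes 56.9% were higher and 10.6% had such a p. Crem, a repressor and activator of cyclic AMP response elements, had vehicle levels from 8.19 to 8.85 and SAHA levels from 7.82 to 8.39 (-0.41 ± 0.11, adjusted p = 0.152), and a second probe gave -0.37. Nr4a2, the nuclear receptor Nurr1, was at 8.38 to 9.61 and at 7.82 to 8.58 (-0.47 ± 0.13, adjusted p = 0.193), the highest value being that of vehicle replicate 1. Fos ran from 6.87 to 8.13 in vehicle and from 6.85 to 7.29 in SAHA rats (-0.17 ± 0.16), and Arc from 8.07 to 8.95 and from 8.07 to 8.71 (-0.24 ± 0.16). The ranges overlapped for both genes. For Arc, vehicle replicates 1, 2, 3 and 4 (8.95, 8.79, 8.83 and 8.77) lay above every SAHA array. Before normalization these arrays also had the highest mean signals of their group (761.8, 710, 630.1 and 605.9). The other vehicle arrays had mean signals from 458.5 to 540.6. The part of array brightness in the Arc levels was not tested. Junb differed by -0.10 ± 0.09, Egr1 by -0.04 ± 0.12, Egr4 by -0.09 ± 0.17, Kdm6b by -0.24 ± 0.11 and Bdnf by 0.11 ± 0.08.

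Synaptic genes were not called either. An unadjusted p under 0.05 was found for 3 of 12 glutamate receptor subunits, 1 of 16 postsynaptic genes and 3 of 16 vesicle and release genes among the lower, and for 0, 0 and 1 among the higher, against 4.56% and 6.02% of all probes. The balance over all probes depended on the scaling, as given above. Syn2, which codes for the vesicle protein synapsin II, was at 8.77 to 9.65 in vehicle rats and at 8.37 to 9.27 in SAHA rats (-0.53 ± 0.14, adjusted p = 0.152). Gria3, an AMPA receptor subunit, was at 9.02 to 10.09 and at 8.86 to 9.82 (-0.51 ± 0.15), the NMDA receptor subunit Grin2a differed by -0.52 ± 0.19, the metabotropic receptor Grm5 by -0.65 ± 0.25 (detected on 6 of 7 vehicle and 2 of 7 SAHA arrays), the active zone protein Rims2 by -0.41 ± 0.13 and the scaffold Shank1 by -0.32 ± 0.11. The vesicle protein Sv2b was at -0.33 ± 0.15 and synaptophysin, Syp, at 0.14 ± 0.05. The medians over the lists were close to 0: -0.02 for 12 glutamate receptor subunits, -0.04 for 16 postsynaptic genes and 0.03 for 16 vesicle and release genes.

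In signalling and hormone lists, Nfkbia, the NF-kappa-B inhibitor that NF-kappa-B and glucocorticoids both induce, had vehicle levels from 11.29 to 11.65 and SAHA levels from 10.84 to 11.37. Of the SAHA arrays 6 of 7 lay below every vehicle array (-0.34 ± 0.09, adjusted p = 0.152). Of 13 glucocorticoid responsive genes, 0 were called and the median was -0.03: Klf9 was at -0.26 ± 0.09 and Tsc22d3 at -0.19 ± 0.07, while Rasd1 was at 0.23 ± 0.08. The NF-kappa-B list (7 tested) and the circadian clock list (11 tested) had no call, with Npas2 at -0.36 ± 0.14 in the latter.

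Proteasome subunits lay slightly above 0, with 23 of 30 higher, a median of 0.05 and no call, against 56.9% of all probes higher. The median over all probes was 0.0188 in this setting and 0.00273 with median scaling. The list medians were computed in this setting only, so how far such small shifts depend on the scaling was not tested. Psma5 (0.13 ± 0.05), Psmb3 (0.13 ± 0.05), Psma2 (0.12 ± 0.05) and Psmb2 (0.11 ± 0.05) had the smallest p-values of this list. Of 29 subunits of oxidative phosphorylation, 20 were higher with a median of 0.04 and no call. Cox4i1 was at 0.10 ± 0.05 and Uqcrc1 at -0.11 ± 0.05. Of 16 chaperones 6 were higher and 10 lower, with no call, and Hspe1 was at 0.19 ± 0.06 and Dnajb5 at 0.21 ± 0.10.

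Directions of cell type markers were counted in this setting only, where 56.9% of all probes were higher, and the balance of directions depends on the scaling. Those of astrocytes were mostly lower: 11 of 13, with no call and a median of -0.10. Of the 11, S100b (-0.04 ± 0.07), Ndrg2 (-0.03 ± 0.06), Slc1a3 (-0.02 ± 0.06) and Aldoc (-0.01 ± 0.05) lay within their SE of 0. The mean level of the astrocyte markers ran from 11.88 to 12.07 on vehicle arrays and from 11.75 to 11.89 on SAHA arrays, with medians of 11.97 and 11.81. Slc4a4, the sodium bicarbonate cotransporter of astrocytes, had vehicle levels from 8.80 to 9.42 and SAHA levels from 8.14 to 9.05 (-0.59 ± 0.14, adjusted p = 0.13), and Gjb6, the astrocyte connexin, differed by -0.20 ± 0.08. Markers of interneurons were lower in 8 of 11 (median -0.11, with Gad2 at -0.57 ± 0.22), none called, and their mean level ran from 8.63 to 9.21 on vehicle and from 8.37 to 9.13 on SAHA arrays. Markers of oligodendrocytes were lower in 10 of 12 (median -0.10, with Olig1 at -0.16 ± 0.10) and of microglia in 9 of 12 (median -0.04), none called. Their mean levels on the arrays did not follow these medians. For oligodendrocytes the mean level ran from 9.11 to 10.58 with a median of 9.50 on vehicle arrays and from 9.20 to 9.60 with a median of 9.54 on SAHA arrays, and for microglia from 8.71 to 9.14 (median 8.77) and from 8.66 to 8.93 (median 8.81). P2ry12, the purine receptor of microglia, was at 8.06 to 8.69 in vehicle rats and 7.64 to 8.11 in SAHA rats (-0.37 ± 0.10, adjusted p = 0.165). Tmem119, the microglia marker with the next smallest p, went the other way (0.21 ± 0.11, limma adjusted p = 0.516). The mean level of the 4 tested CA1 markers ran from 7.51 to 8.68 and from 7.33 to 8.24, and that of the 5 granule cell markers from 8.97 to 9.56 and from 9.25 to 9.61. The only tested choroid plexus marker, Ttr, was detected on 4 of 7 vehicle and 1 of 7 SAHA arrays. Oligodendrocyte precursor, CA3, pericyte and blood cell markers had no call among 5, 4, 3 and 2 tested, and their smallest p-values were those of Cspg5 (-0.09 ± 0.07), Spock1 (-0.10 ± 0.09), Vtn (-0.09 ± 0.13) and Hbb (0.18 ± 0.22). Of the CA1 and granule cell markers, those were Dcn (-0.28 ± 0.18) and Pkp2 (0.23 ± 0.11). The part of these marker differences in the gene differences above was not tested.

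**Figure D4:**
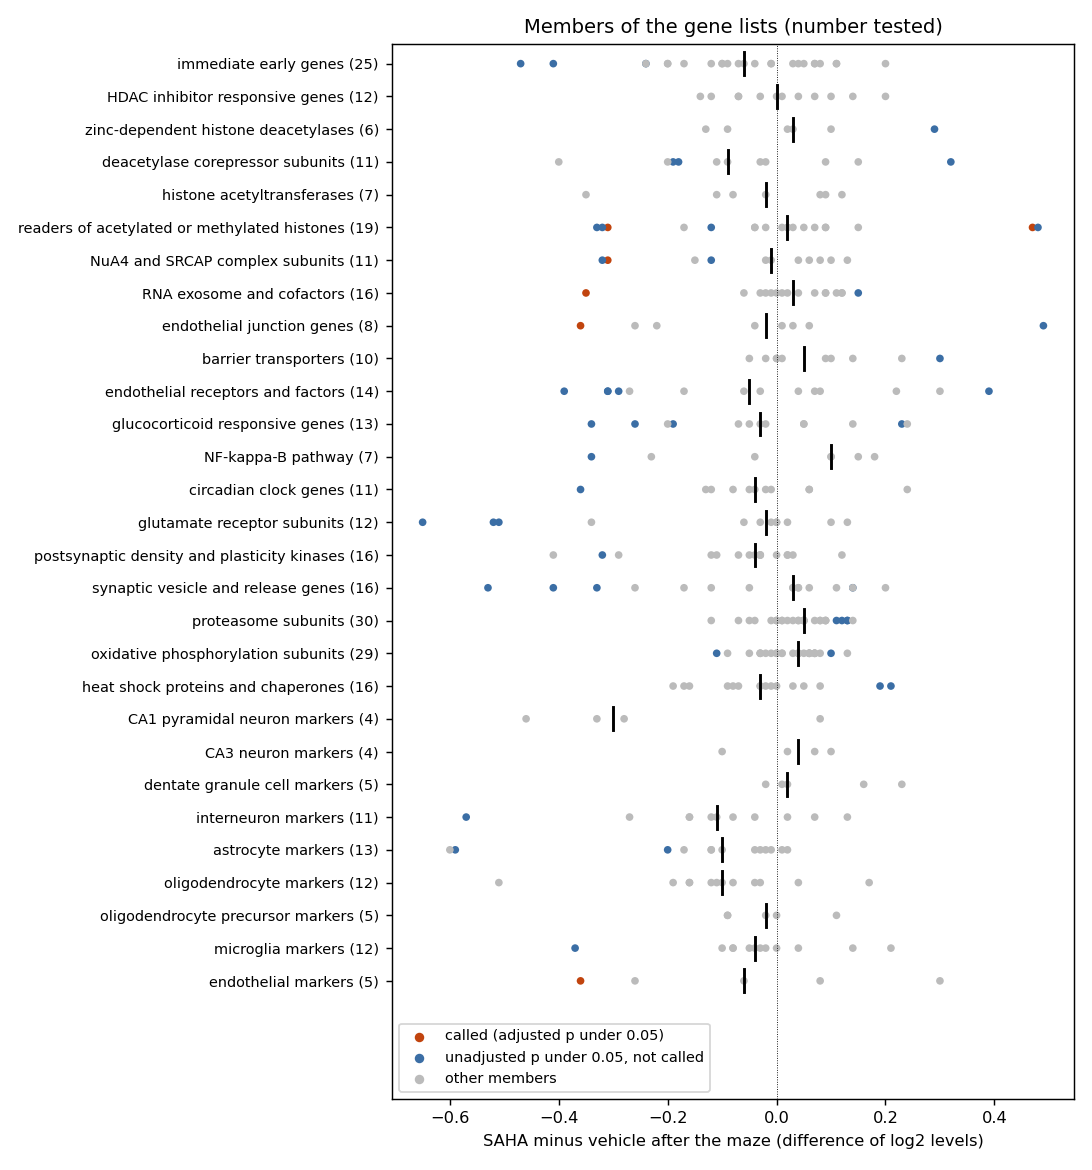
Differences of log2 levels, SAHA minus vehicle after the maze (horizontal axis), for the tested members of each list with at least 4 of them (rows, with the number tested). Black ticks are list medians, red points called members and blue points members with an unadjusted p under 0.05. Each list has at most 2 called members, and the medians lie between -0.30 and 0.10.

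The same drug comparison in home cage rats, on 14 other arrays labelled CA1, called 1 of 9919 probes (0.0101%), Tmem252, and 710 (7.16%) had an unadjusted p under 0.05. Tmem252 was detected on 7 of 7 vehicle and 0 of 7 SAHA arrays there, at least 1.63-fold lower with SAHA, from measured means of 6.84 and 5.10 (adjusted p = 4.89e-06). Since 0 of 7 and 1 of 7 SAHA arrays detected Tmem252 in the home cage and after the maze, the size of its difference was not compared between them. Phf13 (0.36 ± 0.09) and Cldn5 (-0.27 ± 0.07) had the same direction in the home cage with smaller values. Neither was called there (limma adjusted p = 0.247 and 0.248, unadjusted 0.00028 and 0.000475). Their adjusted interaction p-values were 0.817 and 0.805. Exosc3 (-0.07 ± 0.07), Yeats4 (-0.05 ± 0.06) and the unnamed probe (-0.10 ± 0.12) lay near 0 in the home cage, and their interactions did not pass (adjusted p = 0.574 for each). As the maze data chose these genes, a smaller home cage value has no weight of its own.

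Of all probes tested, 47.9% had the same direction after the maze and in the home cage, with a Pearson r of -0.15 across probes between comparisons that share no array. Of the probes with an unadjusted p under 0.05 after the maze, 54.9% of the higher ones (328 of 597) and 54.9% of the lower ones (248 of 452) had the same direction in the home cage. Among the 10 higher and the 10 lower named genes with the smallest p-values it was 7 of 10 each.

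**Figure D5:**
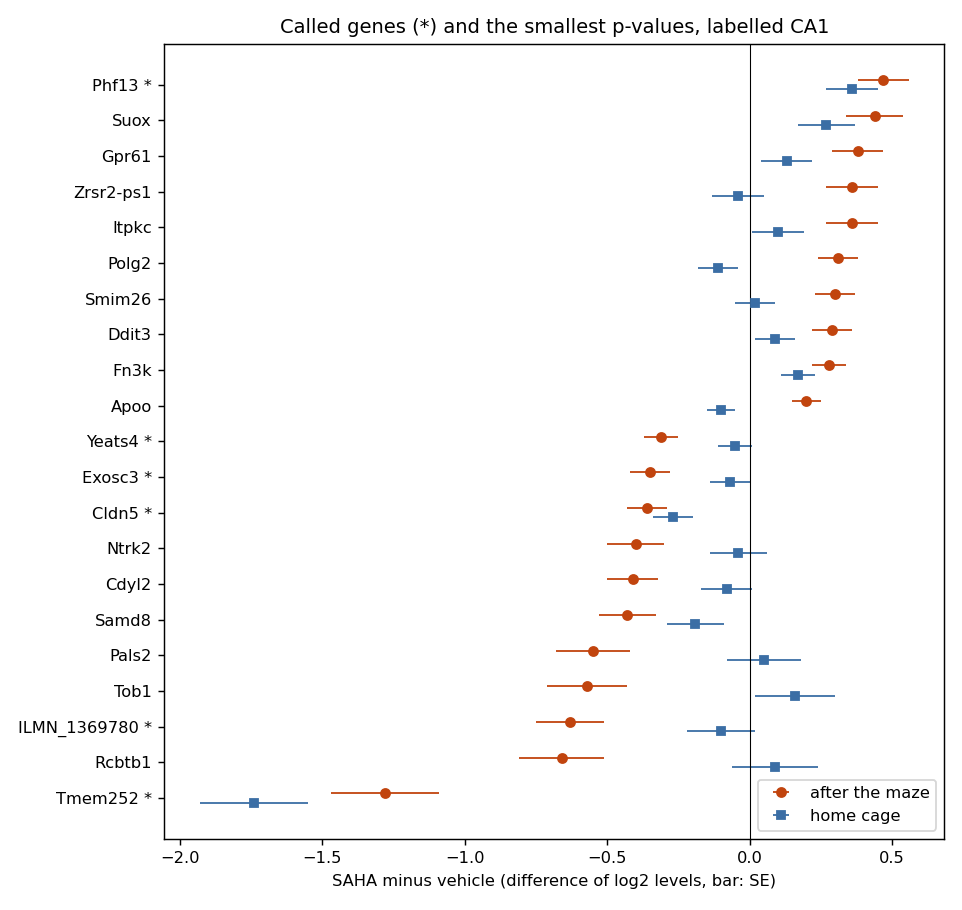
Differences of log2 levels, SAHA minus vehicle (horizontal axis), after the maze (red circles) and in the home cage (blue squares), with SE bars, for the called probes (asterisks) and the other genes with the smallest p-values after the maze. Tmem252, Phf13 and Cldn5 lie on the same side of 0 in both settings, and Exosc3, Yeats4 and the unnamed probe lie near 0 in the home cage. The home cage value of Tmem252 (-1.74) is fitted to SAHA levels that were not well above background.

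The drug by behaviour interaction itself was called for 1 of 9919 probes (0.0101%, and 8.36% at an unadjusted p under 0.05), the unnamed ILMN_1350899. This probe was dim. After the maze its levels ran from 5.99 to 6.48 in vehicle and from 5.49 to 6.0 in SAHA rats, with 7 of 7 and 1 of 7 arrays detecting it (-0.46 ± 0.13). In the home cage 0 of 7 vehicle and 5 of 7 SAHA arrays detected it. Its measured means there, 5.79 and 6.36, give a lower bound of 1.18-fold without allowance for error, and no rise was called (adjusted p = 0.228). The fitted interaction of -1.03 (adjusted p = 0.0442) therefore rests on values that were mostly not above background in 2 of the 4 groups. Named genes with unlike values after the maze and in the home cage did not pass. Apold1 was at 0.39 ± 0.14 after the maze and -0.36 ± 0.14 in the home cage, and Dusp1, a phosphatase among the immediate early genes, was at 0.05 ± 0.15 and -0.63 ± 0.15 (interaction adjusted p = 0.574 for both). Apoo and Polg2, higher after the maze, were at -0.10 ± 0.05 and -0.11 ± 0.07 in the home cage, with adjusted interaction p-values of 0.574 each.

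In the other regions of the maze groups the drug difference of Tmem252 was -1.16 with the CA3 label and -1.21 with the DG label, and 5 of 7 SAHA arrays detected it in either. Yeats4 was at -0.24 and -0.26, Exosc3 at -0.25 and -0.24, and Phf13 at 0.23 and 0.24. Cldn5 was at -0.01 and -0.12, and the test of the difference from labelled CA1 did not pass for either (limma adjusted p = 0.328 and 1, unadjusted 0.002 and 0.0293). The unnamed ILMN_1369780 was at -0.10 and -0.29, against -0.63 in labelled CA1 (limma adjusted p = 0.328 and 1, unadjusted 0.00336 and 0.0592). Over all 9919 probes, limma called 0 (0%) as differing in drug response between labelled CA1 and labelled CA3 and 0 (0%) between labelled CA1 and labelled DG, with 1193 (12%) and 265 (2.67%) at an unadjusted p under 0.05. Cldn5 is in both of these sets, ILMN_1369780 in the first, and Tmem252, Exosc3, Yeats4 and Phf13 in neither. The called probes were chosen by their labelled CA1 difference, which is a term of both tests. Their unadjusted p-values in these tests therefore have no weight of their own, and nothing is read from this membership. The 3 regions were taken to come from the same rats, which the labels do not state. These values are therefore not counted as independent repeats of the comparison.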

How the data were processed

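Illumina bead arrays measured RNA of microdissected hippocampal tissue, processed by the authors in GenomeStudio 2011.1, per the submitters' processing notes. No slide is stated in the labels. The deposited signal table (intensity, 22523 probes) and, per the file headers, a detection p-value for each probe were used, with the value 0.01 read as 0, since it marked the brightest probes. The authors' deposited normalized score, the log10 signal centred and scaled to unit spread on each array (a z-score, checked against the signal), served as an alternative.

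Background was corrected by normexp (limma 3.58.1, R 4.3.3, data.table version 1.17.8, offset 16) and log2 values were quantile normalized over 84 arrays, which removes shifts shared by most probes. Probes detected (p under 0.01) on at least 7 of 28 labelled CA1 arrays were tested. A limma fit (eBayes with trend) of the 4 labelled CA1 groups gave the drug differences and the interaction. A fit of all 84 arrays gave regional differences, with arrays of 1 group and number taken as 1 rat (random block), which the labels do not state. Called means a Benjamini-Hochberg adjusted p under 0.05. Scripts were tested on simulated data. The 7 rats of a group limit the precision.

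Of the probes, 13793 had 1 gene symbol and 8730 none, and a gene was read from its brightest probe. The text names the called genes, the 10 smallest p-values in either direction, members of 32 lists (those among the 4 smallest p-values that were under 0.05, otherwise the smallest), genes called in the home cage or the interaction, and fixed activity and deacetylase genes. Hdac6 was too dim to test, and Hdac5, Hdac7, Hdac9 and Hdac10 were not analysed here. Members and lists were chosen with earlier results of these data known. Promoters are from RefSeq (GRCr8), matched by symbol for 5 of 5 named called genes. The closing section gives the effect of the alternatives: no background correction, median scaling, z-scores, no filter, a strict filter (detected on all 28 arrays), array weights, a replicate block, fewer arrays.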

Additional observations from a re-analysis of the deposited data

Results flagged for a closer look

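Of 172 groups of 7 arrays tested among the named probes, 19 held an array set apart from the rest by Dixon's criterion. Chance gives this in about 1 group of 20 when groups are independent. These groups share their arrays, and most probes were chosen by their p-value in this comparison, so no excess is read from the count. SAHA replicate 1 stood apart for Yeats4 (10.32, next array 10.00), Phf13 (8.52, next 9.11) and Suox (8.0, next 8.37). Vehicle replicate 1 was high for Nr4a2 (9.61), Gjb6 (11.90), Spock1 (10.41), Shank1 (7.56) and Hdac11 (12.27), and low for Ing3 (6.47). Vehicle replicate 3 was low for Cdyl2 (7.61), Grin2a (8.26) and Sv2b (13.44). SAHA replicate 6 was high for Slc40a1 (7.53) and Sox17 (8.21). Single arrays further stood apart for ILMN_1369780 (SAHA replicate 2, 9.98), Smim26 (vehicle replicate 6, 8.70), Cdyl2 (SAHA replicate 7, 7.17), Mbd3 (SAHA replicate 3, 8.69) and Cox4i1 (vehicle replicate 2, 13.28). The drug difference of ILMN_1350899 differed between maze and home cage rats (interaction -1.03, adjusted p = 0.0442 by limma), with values mostly not above background in 2 of the 4 groups.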

How the results depend on the processing

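The 6 calls after the maze became 2 with median scaling, 1 without a filter, 83 with array weights, 2 with the replicate block and 0 (limma) with only the 14 arrays compared. They were 1 to 65 when 1 array was left out. Without background correction, with z-scores, with the strict filter and without poorly correlated arrays there were 6, 5, 5 and 6, the last sharing 4 of the 6. Among unadjusted p-values under 0.05, 56.9% were higher in the report's setting, 17.4% with median scaling and 45.2% with z-scores. Replicate numbers did not pair the arrays: same-numbered arrays correlated by -0.06 on average (-0.56 to 0.38), and 0 of 7 correlated best with their own number. The home cage call became 0 with the strict filter, which drops Tmem252, and 7 with array weights. The interaction call became 0 with z-scores, without a filter, with the strict filter, with the replicate block and without poorly correlated arrays, 11 with array weights and 0 to 1 when 1 array was left out. The difference between labelled CA1 and labelled CA3 gained 1 call without a filter. Some differences near 0 changed sign: Vtn to 0.00 with array weights, Egr1 and Egr4 to 0.04, Hdac11 to 0.01 and Hdac8 to -0.06 without poorly correlated arrays, Hdac8 to 0.00 with z-scores and -0.06 with array weights. When 1 array was left out, the differences ran for Egr1 from -0.09 to 0.04, for Egr4 from -0.18 to 0.04, for Dusp1 from -0.01 to 0.15, for Hdac8 from -0.06 to 0.09 and for Hdac11 from -0.13 to 0.01. For these changes the cause was not tested. Dim probes near background, such as those of Tmem252, limit what a difference in intensity can show.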
